A study of Homo sapiens with 42 samples.

Results

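The genes described here are 49 components of traffic through the Golgi apparatus, of 28266 gene symbols in the count table. They were chosen by name, with no measured value in the rule but with earlier results of these data known: ARF1, ARF3, ARF4, ARF5 and ARF6, the ARF GTPase-activating proteins ARFGAP1 to ARFGAP3, the exchange factors GBF1, ARFGEF1 and ARFGEF2, 9 TMED proteins, the KDEL receptors KDELR1 to KDELR3, the cargo receptors LMAN1, LMAN2 and SURF4, 9 golgins and Golgi reassembly proteins, the 8 COG subunits and 6 SNAREs. All 49 were in the table, and all 49 passed the filter on low counts in both cell lines. The study asked whether senescent cells depend on COPI, the coat of vesicles that bud from the Golgi. It measured polyadenylated RNA in 42 libraries from IMR90 cells, a strain of human lung fibroblasts, and from IMR90 ER:RAS cells, which carry a RAS oncogene fused to an oestrogen receptor domain that 4-hydroxytamoxifen (4OHT) switches on.

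Oncogene-induced senescence (OIS) was brought about in ER:RAS cells with 100 nM 4OHT, and therapy-induced senescence in IMR90 cells with 50 µg/ml bleomycin for 24 h, a drug that breaks DNA. The controls of both received DMSO. Every culture was then kept for 7 days, given 1 µg/ml doxycycline for 72 h to switch on a short hairpin RNA (shRNA), and collected on day 10. The shRNA was a control, COPB2 shRNA 1 or COPB2 shRNA 2, both directed at the COPI subunit COPB2. This gave 12 groups, with 3 libraries in each of the 6 ER:RAS groups and 4 in each of the 6 IMR90 groups. The non-senescent controls therefore also carried an induced hairpin, and DMSO-treated ER:RAS cells carried the fusion without the 4OHT that activates it. The labels do not say whether replicates were separate cultures. The study describes the replicates of its knockdown comparisons as independent experiments, and p-values measure the spread between these libraries.

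ARF GTPases are molecular switches on Golgi membranes. With GTP bound they recruit coats, COPI among them, and the exchange factors load GTP whereas the GTPase-activating proteins trigger its hydrolysis. TMED proteins, also called p24 proteins, and lectins such as LMAN1 collect cargo into vesicles between the endoplasmic reticulum (ER) and the Golgi. KDEL receptors bind escaped ER chaperones in the Golgi and return them in COPI vesicles. Golgins are long coiled-coil proteins that capture vesicles, the COG complex tethers vesicles moving backwards within the Golgi, and SNAREs drive the final membrane fusion. Fibroblasts secrete collagen and other matrix proteins through this route, and senescent fibroblasts add a secretory phenotype of cytokines and proteases.

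The hairpins are shown because every knockdown result rests on them. Each guide is written 5′ to 3′ as the strand complementary to COPB2 messenger RNA, with its seed, bases 2 to 8, in capitals.

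COPB2 shRNA 1: tTAAATATctttacaatgctgt
COPB2 shRNA 2: tAATTGAAcactctaatctgca

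The target of shRNA 1 lies in coding exon 11 of COPB2 (GRCh37, chr3:139088345-139088366) and that of shRNA 2 in coding exon 4 (chr3:139097987-139098008). A match to the shRNA 1 seed was present in the transcripts of 20 of 49 members (40.8%, against 25.9% of 25055 transcripts) and a match to the shRNA 2 seed in 12 of 49 (24.5%, against 15.8%). ARF4 held 1 match to the seed of shRNA 1 and 0 to that of shRNA 2, and KDELR3 held 0 and 1. These are letters in a transcript only, and no effect of them was tested. The 25055 transcripts were not matched to the members for length or expression.

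COPB2 itself was lower in every knockdown library. In OIS it stood at 303, 397 and 573 CPM (counts scaled to library size) with the control shRNA, at 85.1, 79.0 and 98.6 with shRNA 1 and at 99.9, 82.8 and 113 with shRNA 2. Over both hairpins the log2 fold change was -2.19 in OIS (SE 0.24, adjusted p = 0.000899 by edgeR's quasi-likelihood test with Benjamini-Hochberg adjustment, the test behind each adjusted p unless another is named) and -2.24 after bleomycin (SE 0.14, adjusted p = 2.28e-09).

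Totals ran from 13148194 to 23597310 counts per library. All 10 fibroblast markers were above 3 counts in every group, with a summed level of 19770 to 22740 CPM in DMSO and 13700 to 15010 CPM in OIS control libraries, and of 24540 to 29610 and 13480 to 21670 CPM in the IMR90 pair. Of 7 epithelial markers, 3 to 4 passed 3 counts in any library of a group, with a summed level of at most 247 CPM. Their sum was 147 to 182 CPM in DMSO against 47.0 to 118.5 CPM in OIS control libraries, and 89.7 to 161 against 70.5 to 182 CPM in the IMR90 pair. That of 5 endothelial markers was 14.1 to 18.65 against 7.78 to 14.4 CPM, and 22.4 to 39.9 against 9.51 to 37.7 CPM. The summed levels of 5 haematopoietic markers were 18.6 to 35.2 CPM in DMSO against 73.7 to 99.8 CPM in OIS control libraries. They were 14.8 to 27.7 CPM in DMSO against 60.8 to 111 CPM in bleomycin control libraries of IMR90 cells, where 2 and 5 of the 5 passed 3 counts. Fibroblast sums were lower and haematopoietic sums higher in senescence in both pairs. The part of these lists in the results below was not tested. In such bulk RNA, fewer cells of a type and less RNA per cell cannot be told apart. Libraries of 1 group also differed in base composition. The balance between the 10% of genes with the most AT-rich transcripts and the 10% with the most GC-rich, as a difference of median log2 CPM, ran from -2.77 to 0.45 across the 3 OIS control libraries, and the first of them had the lowest scaling factor (0.726).

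Per kilobase of transcript, the family spanned a wide range. ARF1, the classical COPI recruiter, was the most abundant in DMSO-treated ER:RAS control cells (344 CPM per kb), followed by KDELR1 (252), ARF4 (244) and SURF4 (217), whereas the median over the 49 was 25.6 and TMED8 was lowest (0.875). In IMR90 DMSO control cells ARF1 was again first (303 CPM per kb), the median was 29.9 and TMED8 was last (2.03). Of the 49, 19 overlap another gene of the table, among them ARF4 with PDE12 and KDELR3 with DDX17. Whether counting used strand was not given in the sources used here, so reads of such pairs may be shared. Reads of TMED7, with its TMED7-TICAM2 readthrough, and of SEC22B, which has near-identical copies, may also be shared, whatever the strand mode.

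In OIS, 4 of the 49 rose and 1 fell, 5 in all (10.2%). Of the 14297 genes tested 35.7% were called, 15.5% as higher and 20.2% as lower. KDELR3, TMED9, ARF1 and TMED4 rose and COG2 fell. The median log2 fold change of the 49 was 0.29 with 33 above 0, against -0.08 over all genes, and 8 members had an unadjusted p under 0.05. Another scaling, DESeq2's size factors, moved the median of all genes to 0.04, so that fold changes in OIS are to be read against a shift of that size. The median of the 49 moved too, from 0.1975 to 0.41 over the alternative settings other than leaving out 1 library. After bleomycin 5 of 49 rose and 0 fell (10.2%, against 31.2% of 14783 genes, 15.4% higher and 15.8% lower): TMED4, COG1, SEC22B, ARF4 and KDELR3. The median was 0.17 with 41 of 49 above 0, against -0.01 over all genes. Here and below, counts above 0 come from genes that share libraries. They are not separate results, and no test of a set was made. In both models the share of these genes that was called lay below that of all genes.

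**Figure D1:**
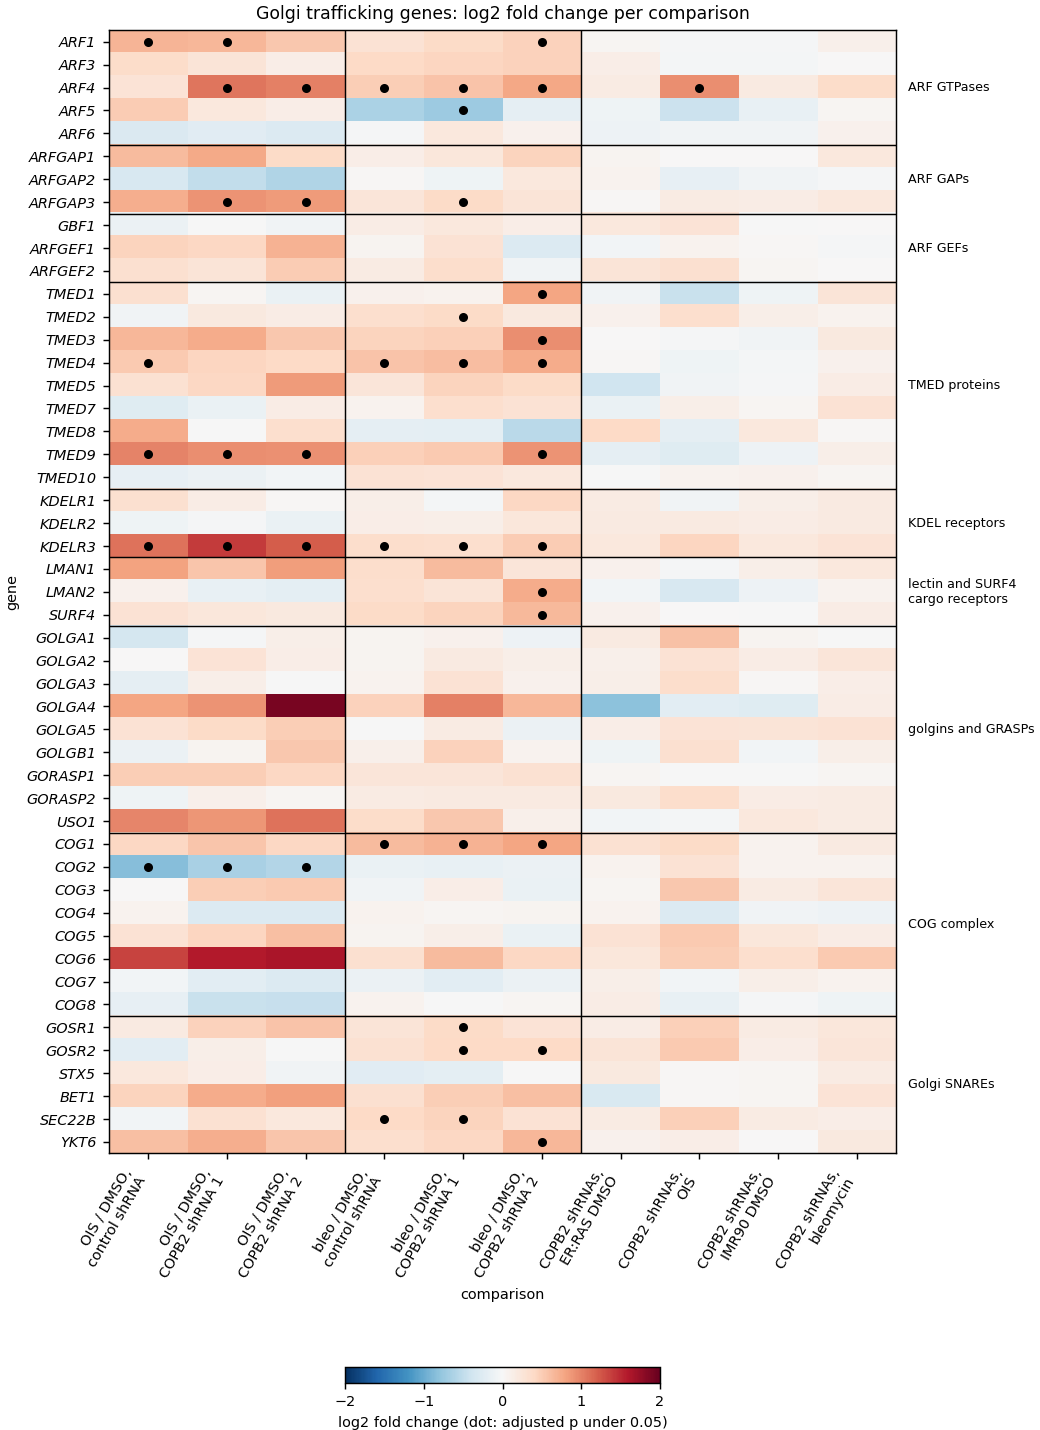
Log2 fold change (colour, from -2 in blue to 2 in red) of each of the 49 genes (vertical axis, grouped by role) in 10 comparisons (horizontal axis): OIS or bleomycin against DMSO within each hairpin, and both COPB2 hairpins against the control hairpin within each treatment. Black dots mark an adjusted p under 0.05. KDELR3 carries a dot in all 6 senescence comparisons, and ARF4 carries the only dot in the 4 knockdown comparisons.

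The KDEL receptors behaved unequally. KDELR3 lies on chromosome 22 (GRCh38.p14, 38468096 to 38483447). Its level was 111, 128 and 119 CPM in DMSO-treated ER:RAS control libraries and 216, 259 and 287 CPM in OIS. The groups did not overlap, and the log2 fold change was 1.09 (SE 0.14, adjusted p = 2.26e-05). In IMR90 cells it was 149, 104, 109 and 114 CPM in DMSO and 148, 173, 157 and 134 CPM after bleomycin, where 1 DMSO library lay within the bleomycin range (0.36, SE 0.13, adjusted p = 0.0323). The bleomycin call was lost in 8 of 14 alternative settings, 5 of which left out 1 library: replicate 2, 3 or 4 of DMSO or replicate 2 or 3 of bleomycin (0.30 to 0.35, adjusted p from 0.0710 to 0.110). KDELR2 (-0.08 in OIS and 0.14 after bleomycin) and KDELR1 (0.32 and 0.12) passed no test in these comparisons, with adjusted p between 0.477 and 0.773. KDELR2 was among the steadiest genes, at 409 to 525 CPM in all 6 ER:RAS control libraries, while KDELR1 varied from 284 to 530 CPM within DMSO alone.

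The rise of KDELR3 in OIS held with each hairpin. With shRNA 1 the log2 fold change against DMSO was 1.39 (SE 0.14, adjusted p = 1.96e-06) and with shRNA 2 it was 1.20 (SE 0.14, adjusted p = 8.21e-06). It passed the test in all 12 alternative settings of the control comparison, with a value of 1.06 to 1.23 and an adjusted p of at most 0.0245.

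TMED proteins, the p24 cargo receptors, gave 2 of the 4 rises in OIS. TMED4 was the one called in both models. It stood at 112, 132 and 97.6 CPM in DMSO and at 195, 151 and 148 CPM in OIS (0.53, SE 0.17, adjusted p = 0.0242). In IMR90 cells it stood at 133, 102, 103 and 108 CPM in DMSO and at 168, 173, 151 and 165 CPM after bleomycin (0.56, SE 0.12, adjusted p = 0.000933). The groups overlapped in neither model, and the bleomycin call held in all 14 alternative settings.

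TMED9, a p24 protein known to retain misfolded cargo in the early secretory pathway, was measured at 332, 390.2 and 376 CPM in DMSO and at 1155, 560 and 465.5 CPM in OIS. All 3 OIS libraries were higher, the first of them by far. The log2 fold change was 0.99 (SE 0.31, adjusted p = 0.0197), and without that library it was 0.52 with an adjusted p of 0.152, and the call was also lost without the first DMSO library (0.98, adjusted p = 0.0736). The OIS call of TMED4 was lost without that same OIS library (0.42, adjusted p = 0.0918) and without the first (0.56, adjusted p = 0.0776) or the third (0.48, adjusted p = 0.0919) DMSO library. After bleomycin TMED9 gave 0.48 (adjusted p = 0.0781). The other 7 TMED genes passed no test in OIS, from -0.24 for TMED7 to 0.74 for TMED8, and 8 of the 9 were above 0 after bleomycin.

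Among the ARF GTPases, ARF1 rose in OIS. It was measured at 586, 817 and 496 CPM in DMSO and at 1210, 1000 and 814 CPM in OIS, so that the highest DMSO library lay just above the lowest OIS library (0.67, SE 0.24, adjusted p = 0.0367). The call was lost in 6 of 12 alternative settings, among them those without the first (0.55, adjusted p = 0.127) or second (0.73, adjusted p = 0.0774) OIS library and without the first (0.66, adjusted p = 0.124) or the third (0.57, adjusted p = 0.143) DMSO library. ARF4, which acts with ARF1 in COPI recruitment, stood at 394, 355 and 417 CPM in DMSO and at 474, 461 and 481 CPM in OIS. These groups did not overlap, but the difference of 0.28 missed the threshold (SE 0.16, adjusted p = 0.190), which it passed in DESeq2's Wald test (0.41, adjusted p = 0.00134). ARF4 also passed with a replicate block, a term for replicate number in the fit. After bleomycin ARF4 rose, from 464, 334, 386 and 347 CPM to 524, 649, 541 and 429 CPM, with 1 library of each group inside the range of the other (0.49, SE 0.16, adjusted p = 0.0222). That call was lost in 6 of 14 alternative settings, among them those without replicate 2 of bleomycin (0.38, adjusted p = 0.101) and without replicate 2 (0.45, adjusted p = 0.0783) or 4 (0.44, adjusted p = 0.0713) of DMSO. ARF3, ARF5 and ARF6 passed no test with the control hairpin. ARF5 gave 0.51 in OIS and -0.63 after bleomycin, with an adjusted p of 0.396 and 0.0989.

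**Figure D2:**
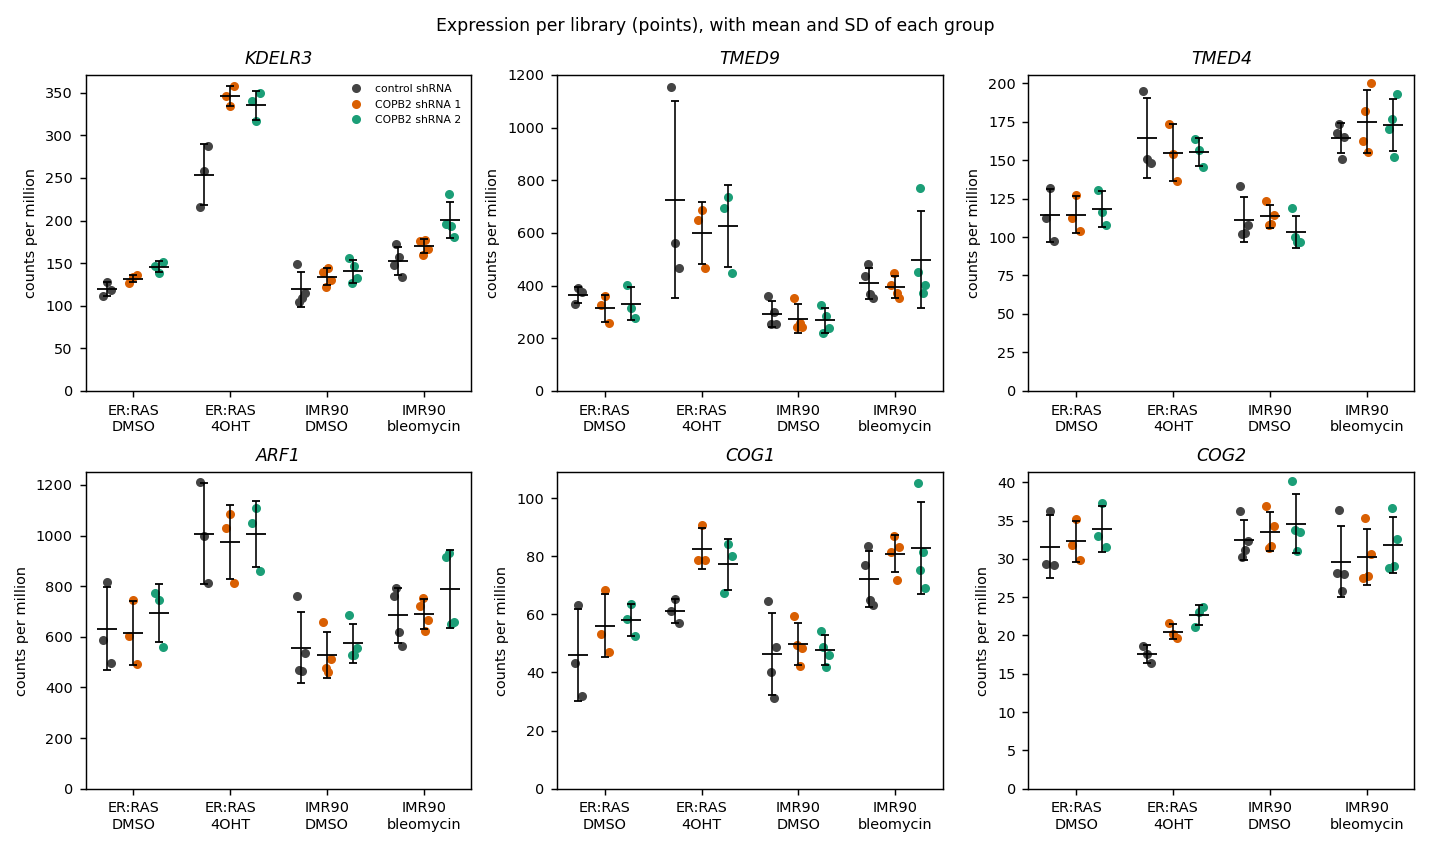
Level (vertical axis, CPM, from 0) of KDELR3, TMED9, TMED4, ARF1, COG1 and COG2 in each library (points) of the 12 groups (horizontal axis), with bars at group means. KDELR3 is higher in every OIS library than in every DMSO library of ER:RAS cells, COG2 is lower in every OIS library, and TMED9 has 1 OIS control library at 1155 CPM above the other 2.

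The regulators of ARF gave 0 calls with the control hairpin in either model by edgeR's test. ARFGAP3, a COPI-associated GTPase-activating protein, was measured at 61.1, 52.0 and 85.3 CPM in DMSO and at 78.0, 106 and 143 CPM in OIS, with overlapping groups (0.72, SE 0.31, adjusted p = 0.0873). It passed with DESeq2's size factors (0.85, adjusted p = 0.0240) and without replicate 1 of OIS (0.94, adjusted p = 0.0340) or replicate 3 of DMSO (0.99, adjusted p = 0.0329). It also passed with the replicate block (0.72). With shRNA 1 it rose by 0.90 (adjusted p = 0.0343) and with shRNA 2 by 0.84 (adjusted p = 0.0457), calls that were lost with either hairpin without replicate 1 or 2 of DMSO or replicate 3 of OIS (0.78 to 0.91 with shRNA 1, adjusted p from 0.0656 to 0.0829, and 0.71 to 0.76 with shRNA 2, adjusted p from 0.106 to 0.154). With shRNA 2 it was also lost in a fit of only the groups compared (0.88, adjusted p = 0.0526). Of the 6 regulators, ARFGAP1 and ARFGAP3 had an unadjusted p under 0.05 in OIS and DESeq2's Wald test called ARFGAP3, while after bleomycin 0 had an unadjusted p under 0.05 and 0 were called by the Wald test. Of the exchange factors, ARFGEF1 and ARFGEF2 varied more between replicates of ER:RAS cells (SD of log2 CPM 1.44 and 0.916) than GBF1 (0.340). ARFGEF2 was at 38.95, 19.1 and 38.5 CPM in DMSO and at 12.6, 34.2 and 73.6 CPM in OIS, and both the lowest and the highest of these 6 values came from OIS libraries (0.32, SE 0.68, adjusted p = 0.770).

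SURF4, a receptor that exports soluble cargo from the ER, was at 581, 808 and 520.0 CPM in DMSO and at 1032, 694 and 611 CPM in OIS, with overlapping groups (0.29, SE 0.24, adjusted p = 0.390). The lectins LMAN1 and LMAN2 were not called in either model with the control hairpin. Of the 9 golgins and Golgi reassembly proteins 0 were called in either model by edgeR. GORASP1, which helps stack Golgi cisternae, came nearest in OIS, at 53.8, 76.4 and 49.4 CPM in DMSO against 94.98, 80.4 and 78.5 CPM in OIS. Its groups did not overlap (0.50, SE 0.19, adjusted p = 0.0512), and it was the only golgin or reassembly gene with an unadjusted p under 0.05 in OIS and the only one that the Wald test called (adjusted p = 0.0444). It also passed without replicate 2 of DMSO (0.78, adjusted p = 0.00903) or replicate 3 of OIS (0.62, adjusted p = 0.0478), and with the replicate block. After bleomycin 0 of the 9 had an unadjusted p under 0.05 and 0 were called by the Wald test.

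The COG complex has 2 structural lobes, and single subunits of it moved. COG2 fell in OIS, from 29.3, 36.3 and 29.2 CPM to 18.7, 17.6 and 16.5 CPM. The OIS libraries lay close together and below all DMSO libraries (-0.85, SE 0.17, adjusted p = 0.000958). With shRNA 1 its fold change in OIS was -0.65 (adjusted p = 0.00573) and with shRNA 2 -0.58 (adjusted p = 0.0119). The call was lost in 1 of 12 alternative settings with the control hairpin, in 3 of 12 with shRNA 1 and in 8 of 12 with shRNA 2. These included the fits without replicate 2 of DMSO or 3 of OIS with shRNA 1 (-0.52 and -0.56) and without replicate 1 or 2 of DMSO or 1 or 3 of OIS with shRNA 2 (-0.56 to -0.50). After bleomycin COG2 gave -0.13 (adjusted p = 0.491), with overlapping groups. COG1, of the same lobe, rose after bleomycin from 64.6, 40.3, 31.4 and 48.9 CPM to 77.0, 83.5, 65.0 and 63.1 CPM (0.64, SE 0.18, adjusted p = 0.00954), where 1 DMSO library lay within the bleomycin range. This held in all 14 alternative settings. In OIS COG1 gave 0.41 (adjusted p = 0.175), and 0.77 without replicate 2 of DMSO (adjusted p = 0.0151). The replicate block called it as well. The largest estimate in OIS belonged to COG6, at 1.35, but its libraries ranged from 11.3 to 43.7 CPM in DMSO and from 18.3 to 132 CPM in OIS (SE 0.86, adjusted p = 0.251).

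Among the Golgi SNAREs, SEC22B, which acts in the fusion of vesicles between ER and Golgi, rose after bleomycin from 100.3, 103, 122 and 110 CPM to 126, 138, 150 and 162 CPM. The groups did not overlap (0.41, SE 0.12, adjusted p = 0.0157), with the doubt over its near-identical copies given above. In OIS it gave -0.05 (adjusted p = 0.926), a sign that turned under 6 of 12 alternative settings. GOSR1, GOSR2, STX5, BET1 and YKT6 were not called by edgeR with the control hairpin, and GOSR1 was called after bleomycin by the Wald test (0.31, adjusted p = 0.0442).

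With the COPB2 hairpins present, more of these genes passed the test after bleomycin. With shRNA 1, 9 rose and 1 fell (20.4%, against 35.2% of all genes, 17.4% higher and 17.8% lower), and with shRNA 2, 12 rose and 0 fell (24.5%, against 40%, 21.7% higher and 18.3% lower). TMED4, COG1, ARF4 and KDELR3 rose with all 3 hairpins, and GOSR2 with both COPB2 hairpins. With shRNA 1 the others were SEC22B, GOSR1, TMED2 and ARFGAP3, which rose, and ARF5, which fell (-0.73, adjusted p = 0.0488). With shRNA 2 the others were TMED9 (0.90), TMED3 (0.93), TMED1 (0.79), LMAN2 (0.74), YKT6 (0.66), SURF4 (0.64) and ARF1 (0.46), with adjusted p from 0.00148 to 0.0463. In OIS the counts were 6 of 49 with shRNA 1 (12.2%, against 36.9%, 15.4% higher and 21.5% lower) and 5 of 49 with shRNA 2 (10.2%, against 36.9%, 14.9% higher and 22% lower). KDELR3, ARF4, TMED9 and ARFGAP3 rose and COG2 fell with both, and ARF1 rose with shRNA 1 (0.67, adjusted p = 0.0365). Beyond ARFGAP3 and COG2, given above, TMED9 lost its OIS call with each hairpin in 4 of 6 fits without 1 library. With shRNA 1 these were the fits without replicate 1 or 3 of DMSO or 1 or 2 of OIS (0.84 to 1.005, adjusted p from 0.0638 to 0.0934), and with shRNA 2 those without replicate 2 or 3 of DMSO or 1 or 2 of OIS (0.82 to 0.89, adjusted p from 0.0812 to 0.101). ARF1 with shRNA 1 lost its OIS call in 7 of 12 settings, among them those without replicate 1 or 3 of DMSO or 1 or 2 of OIS (0.56 to 0.70, adjusted p from 0.102 to 0.142).

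After bleomycin, TMED4 and COG1 kept their calls with each COPB2 hairpin in all 14 alternative settings, and so did ARF4, KDELR3, TMED3, TMED9 and SURF4 with shRNA 2. With shRNA 1 KDELR3 was lost in 9 of 14, namely in every fit without 1 library except that without replicate 3 of DMSO (0.29 to 0.35, adjusted p from 0.0629 to 0.140), and, among the others, once corrected for base composition and length (0.21, adjusted p = 0.182). ARFGAP3 with shRNA 1 was lost in 8 of 14, in the same 7 of 8 fits without 1 library (0.28 to 0.41, adjusted p from 0.0517 to 0.166). ARF5 was lost in 9 of 14, and of the fits without 1 library it was called only in that without replicate 2 of bleomycin (-0.78 to -0.62 in the others, adjusted p from 0.0586 to 0.145).

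TMED2 and GOSR1 with shRNA 1 were lost in 7 and 6 of 14 settings, each in 5 of 8 fits without 1 library. For TMED2 these left out replicate 1, 2 or 4 of DMSO or 2 or 3 of bleomycin (0.33 to 0.37), and for GOSR1 replicate 1, 2 or 4 of DMSO or 3 or 4 of bleomycin (0.34 to 0.38). GOSR2 was lost in 7 of 14 with each COPB2 hairpin, without replicate 2, 3 or 4 of DMSO or 1 or 2 of bleomycin with either (0.35 to 0.41), and with shRNA 1 also without replicate 4 of bleomycin (0.41). ARF1 with shRNA 2 was lost in 7 of 14, without replicate 2, 3 or 4 of DMSO or 1 or 2 of bleomycin (0.38 to 0.46, adjusted p from 0.0892 to 0.123). TMED1 (0.45, adjusted p = 0.0882), LMAN2 (0.44, adjusted p = 0.0919) and YKT6 (0.49, adjusted p = 0.0588) with shRNA 2 were lost without replicate 2 of bleomycin and in a fit of only the groups compared. ARF4 and SEC22B with shRNA 1 were lost once corrected for base composition and length. Under that correction the SD within IMR90 groups rose from 0.205 to 0.448 for ARF4 and from 0.150 to 0.315 for SEC22B. The median SD of all genes fell from 0.352 to 0.250.

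A greater number of calls with a hairpin is not a difference between hairpins, which is tested below.

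OIS and bleomycin differed for 2 of the 49 (4.08%, against 20.3% of 15299 genes, 8.14% higher and 12.1% lower) in a fit of all 42 libraries that tested the difference between the fold changes. KDELR3 was 0.79 higher in OIS (SE 0.18, adjusted p = 0.00185), and COG2 was lower by -0.65 (SE 0.21, adjusted p = 0.0244). The COG2 difference lost its call in 7 of 20 alternative settings, among them those without the second ER:RAS DMSO control (-0.49, adjusted p = 0.108), the second bleomycin control (-0.53, adjusted p = 0.0715) or the third OIS control library (-0.56, adjusted p = 0.0703). The KDELR3 difference lost it in 1 of 20. OIS and bleomycin were applied to different cell lines, so the stimulus and the line cannot be told apart. ARF5 had the largest difference in value (1.23, SE 0.54), with an adjusted p of 0.110.

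Knockdown of COPB2 raised ARF4 in OIS, the single member that edgeR called in any knockdown comparison. ARF4 lies on chromosome 3 (GRCh38.p14, 57571363 to 57597344). Its level in OIS was 474, 461 and 481 CPM with the control hairpin, 825, 808 and 894 CPM with shRNA 1 and 975, 814 and 1102 CPM with shRNA 2. Each of the 6 knockdown libraries lay far above all 3 controls. Over both hairpins the log2 fold change was 0.93 (SE 0.14, adjusted p = 0.00636), and 1 of 49 called is 2.04%, against 0.266% of all genes. With shRNA 2 alone ARF4 was again the single member called (1.03, SE 0.16, adjusted p = 0.00824, against 0.224% of all genes). With shRNA 1 alone edgeR called 0 members (against 0.14% of all genes), ARF4 giving 0.84 with an adjusted p of 0.0555, 6 members had an unadjusted p under 0.05, and DESeq2's Wald test called ARF4. The call over both hairpins was lost without the second OIS control library (0.92, adjusted p = 0.0642), in a fit of only the groups compared (0.94, adjusted p = 0.114) and with a correction for GC content and length (0.87, SE 0.30, adjusted p = 0.190). That correction raised the SD of ARF4 within ER:RAS groups from 0.139 to 0.458. The median SD of all genes fell from 0.442 to 0.283. The part of this larger spread in the lost call was not tested.

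**Figure D3:**
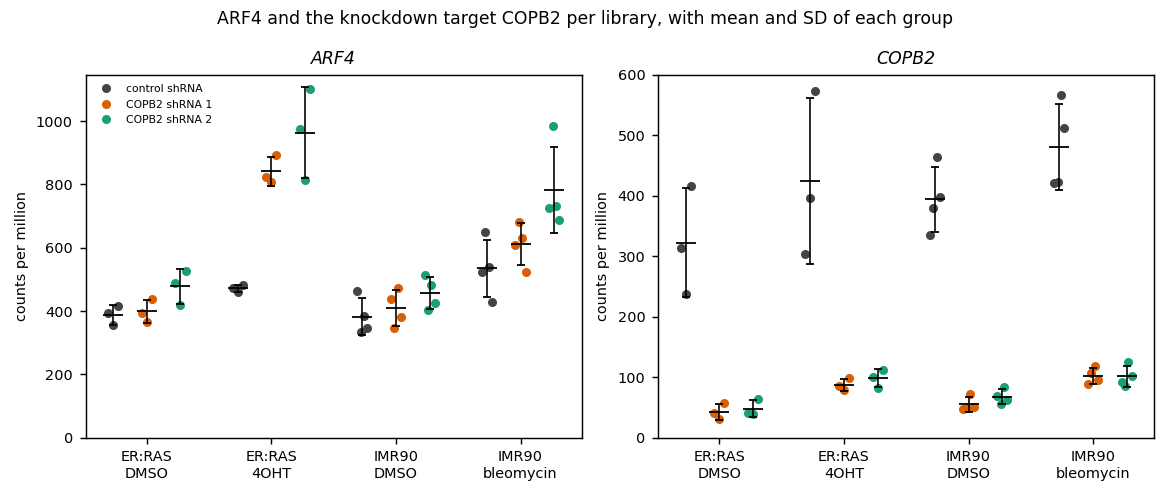
Level (vertical axis, CPM, from 0) of ARF4 and of the target COPB2 in each library (points) of the 12 groups (horizontal axis), with bars at group means. ARF4 lies between 461 and 481 CPM in OIS control libraries and between 808 and 1102 CPM with either COPB2 hairpin, whereas COPB2 is lower with both hairpins in every treatment.

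Without 4OHT, ARF4 was at 394, 365 and 438 CPM with shRNA 1 and at 488, 418 and 527 CPM with shRNA 2, against 394, 355 and 417 CPM with the control (0.17 over both, SE 0.14, adjusted p = 1). The test of the difference between the OIS and the DMSO effect of knockdown gave 0.77 (SE 0.19) with an unadjusted p of 0.00122 and an adjusted p of 0.600, so that the 2 effects were not shown to differ by edgeR. That test called 0 of 49 (against 0.014% of all genes), ARF4 was the single member with an unadjusted p under 0.05, and DESeq2's Wald test called ARF4 (0.74, adjusted p = 0.000288). After bleomycin ARF4 was at 608, 683, 629 and 524 CPM with shRNA 1 and at 725, 985, 731 and 688 CPM with shRNA 2, against 524, 649, 541 and 429 CPM. All 4 libraries of shRNA 2 lay above the controls and those of shRNA 1 overlapped them (0.37 over both, SE 0.14, adjusted p = 1).

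KDELR3 was also higher with both hairpins in OIS, at 347, 334 and 358 CPM and at 340.3, 317 and 350 CPM against 216, 259 and 287 CPM. The groups did not overlap, but the fold change of 0.43 missed the threshold in edgeR (SE 0.12, adjusted p = 0.334) and passed it in DESeq2's Wald test (adjusted p = 0.0165). GOLGA1 (0.58), GOSR2 (0.52), GORASP2 (0.35) and GOLGA2 (0.29) completed the 6 members with an unadjusted p under 0.05 over both hairpins in OIS, all above 0, and their adjusted p ranged from 0.510 to 0.872.

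In the other treatments knockdown called none of the 49. In DMSO-treated ER:RAS cells edgeR called 0 with either hairpin and over both (against 0.00699%, 0.00699% and 0.014% of all genes), with 0 at an unadjusted p under 0.05 and 0 by the Wald test. In DMSO-treated IMR90 cells it called 0 (against 0.00676% in each), with GOLGA2 under 0.05 unadjusted for shRNA 2 and 0 by the Wald test. After bleomycin it called 0 with shRNA 1 (against 0.00676%), 0 with shRNA 2 (against 0.0744%) and 0 over both (against 0.0474%). The unadjusted p was under 0.05 for 2, 5 and 3 members, and the Wald test called 0 in each. Over both hairpins after bleomycin 44 of the 49 values were above 0, with a median of 0.14 against 0.02 over all genes. All 49 values rest on the same control libraries, so this count does not show a joint rise. The test of the difference between the bleomycin and the DMSO effect of knockdown called 0 (against 0%), with 0 at an unadjusted p under 0.05 and 0 by the Wald test.

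Promoters were searched because KDELR3 and ARF1 both rose in OIS and both belong to pathways with known response elements. The RefSeq promoter table (GRCh38.p14, 250 bases before to 50 after the start) held 40 of the 49 genes in 47 windows. ARF4, ARFGAP1, ARFGEF1, TMED4, TMED9, KDELR2, GOLGA4, USO1 and COG7 had no entry. The Golgi stress element ACGTGGC, searched on both strands, was present in 11 of 47 windows (23.4%), against 3.22% of 35116 windows. The unfolded protein response element TGACGTGG, which overlaps the former by 6 letters, was present in 6 (12.8%), against 0.729%. The ER stress element was present in 0 (against 0.0769%) and the cAMP response element TGACGTCA in 0 (against 1.85%). A match is a description of letters and not a bound site. The 35116 windows were not matched to those of the members for base composition or expression. The promoter of KDELR3 (chr22:38467846-38468145, plus strand, 78.3% GC) and the first of ARF1 (chr1:228082458-228082757, plus strand, 74.7% GC) follow, with the overlapping Golgi stress and unfolded protein response elements in capitals.

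KDELR3 promoter: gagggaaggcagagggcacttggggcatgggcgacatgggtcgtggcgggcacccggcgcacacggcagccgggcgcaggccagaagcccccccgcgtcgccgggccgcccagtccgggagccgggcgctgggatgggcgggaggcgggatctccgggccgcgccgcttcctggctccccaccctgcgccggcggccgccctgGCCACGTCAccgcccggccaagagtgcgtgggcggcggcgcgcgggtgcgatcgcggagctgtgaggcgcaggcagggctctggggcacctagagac
ARF1 promoter: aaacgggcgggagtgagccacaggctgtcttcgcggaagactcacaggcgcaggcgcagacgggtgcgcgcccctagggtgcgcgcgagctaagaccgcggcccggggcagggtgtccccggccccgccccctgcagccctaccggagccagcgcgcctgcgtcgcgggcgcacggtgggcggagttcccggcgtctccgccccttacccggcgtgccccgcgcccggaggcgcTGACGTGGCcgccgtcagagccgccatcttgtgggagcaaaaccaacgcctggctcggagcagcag

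The COG2 promoter held neither element. The other 9 genes with the Golgi stress element are shown by a window of 27 bases on the gene's strand, with the element in capitals, because together with KDELR3 and ARF1 they make up the 11.

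COG3, chr13:45464842-45464868: cccatttaaaGCCACGTcggtactggc
GOLGA1, chr9:124941248-124941274: ccgctcgctgACGTGGCgaactgggct
GOLGA3, chr12:132828845-132828871: ccctctcacgGCCACGTctccgccgga
GOLGA5, chr14:92794115-92794141: ccggcggcgaGCCACGTcacacgcacg
GORASP2, chr2:170929233-170929259: ggcagcgagtGCCACGTcccaagtgct
STX5, chr11:62832049-62832075: cgtgtaggtgACGTGGCcgcttccagt
SURF4, chr9:133376097-133376123: ggcttggcctACGTGGCagccgctgga
TMED2, chr12:123584447-123584473: gcctccctttACGTGGCagctgcggga
TMED3, chr15:79311130-79311156: ctccgctggtGCCACGTctatcccctt

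GOLGA1, GOLGA3, STX5 and SURF4 lie on the minus strand and the other 5 on the plus strand. Of the 11 genes with the element, KDELR3 and ARF1 passed the test in OIS with the control hairpin, and the other 9 did not, their values running from -0.35 for GOLGA1 to 0.67 for TMED3.

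Other genes of the same pathways were taken from lists set out for comparison. The share called in OIS was at most 22.2% in each of these 7 lists, below the 35.7% of all genes, and after bleomycin at most 26.7%, below 31.2%, so the counts are given as descriptions. In OIS the ER chaperones and degradation factors of the ATF6 and XBP1 response gave 1 call of 15, SDF2L1 (1.02, adjusted p = 0.0317). Of the 9 COPI subunits 2 fell, COPG2 (-0.96, adjusted p = 0.000504) and COPZ2 (-1.26, adjusted p = 0.0175). Among 15 other Golgi tethers and membrane proteins RINT1 (1.33) and BICD2 (0.99) rose, and GOLM1 fell (-1.99, adjusted p = 2.40e-05). Among 14 TRAPP subunits TRAPPC4 rose (1.08) and TRAPPC6A fell (-1.92), and among 15 other ARF regulators and effectors GGA1 rose (0.84) while GGA2 (-1.002) and CYTH3 (-1.60), an ARF exchange factor of the cell surface, fell. Of 14 other SNAREs and their partners STX18 rose (0.51), and of 8 Golgi Rab GTPases 0 were called, with 1 at an unadjusted p under 0.05.

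After bleomycin CYTH3 fell again (-1.04, adjusted p = 0.000328), with GGA2 (-0.64), CYTH2 (-0.41) and CYTH1 (-0.37), and 4 of the 15 regulators were called. GOLM1 (-0.77), VPS51 (-0.84) and NBAS (-0.47) fell among the tethers, TRAPPC9 (-0.99) among the TRAPP subunits and RAB30 (-0.89) among the Rabs. NSF, the ATPase that recycles SNAREs, rose (0.84, adjusted p = 1.71e-05) with VAMP3 (0.59), and USE1 fell (-0.82). DNAJB9 (0.99) and EDEM1 (0.57) rose among the chaperones. Of the COPI subunits 0 were called, with 0 at an unadjusted p under 0.05.

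Knockdown in OIS called 2 of the 15 chaperone genes, against 0.266% of all genes. They were HSPA5, the main ER chaperone (1.85, SE 0.33, adjusted p = 0.0229), and HERPUD1, a factor of ER-associated degradation (1.51, SE 0.19, adjusted p = 0.00160). All 15 were above 0, with a median of 0.60 against -0.08 over all genes. After bleomycin, where knockdown called 0.0474% of all genes, HERPUD1 was the only one of the 15 called (0.86, adjusted p = 0.0178). All 15 were again above 0, and the median was 0.28 against 0.02. COPB2 was the single COPI subunit called in either. HSPA5 ends in the KDEL signal that the KDEL receptors bind.

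The spread between replicates differed widely among the 49. Within groups of ER:RAS libraries the SD of log2 CPM was 1.92 for GOLGA4, a golgin of the trans-Golgi, 0.107 for KDELR3 and 0.101 for KDELR2, against a median of 0.442 over all genes and 0.382 over the 49. In IMR90 libraries GOLGA4 again varied most (1.52), against medians of 0.352 and 0.274. GOLGA4 was at 39.5, 5.69 and 108 CPM in DMSO control and at 12.2, 64.5 and 187 CPM in OIS control libraries, and in the IMR90 DMSO control group its highest library was 22.1 times its lowest. Of the 49, 8 lay in the top 10% of SD in ER:RAS libraries and 5 in IMR90 libraries.

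**Figure D4:**
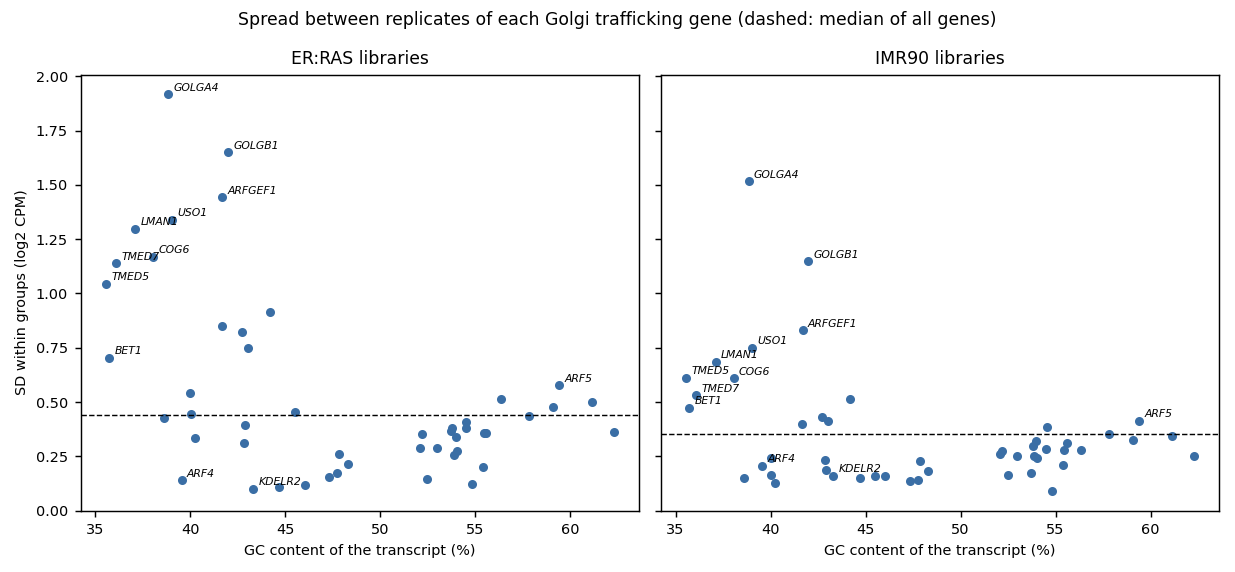
SD of log2 CPM within groups (vertical axis) against the GC content of the transcript in percent (horizontal axis) for each of the 49 genes (points), in ER:RAS (left) and IMR90 (right) libraries. The dashed line is the median of all genes (0.442 and 0.352), and the AT-rich genes GOLGA4, GOLGB1, ARFGEF1, USO1, LMAN1 and COG6 lie above it in both. ARF4, SEC22B and TMED10, with a GC content in the same range, lie below it in both.

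These deviations went with the base composition of the library. The balance of AT-rich against GC-rich genes shared a median of 86.3% of the within-group variance of the 49 in ER:RAS and 73.3% in IMR90 libraries, against 70.5% and 45.5% over all genes. The values describe 18 and 24 libraries, of which those of a cell line also share a scaling, and no test was made. For GOLGA4 the shares were 86.7% and 93.0%, and for KDELR3 22.6% and 34.8%. GC content over the 49 transcripts ran from 35.6% to 62.3%.

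**Figure D5:**
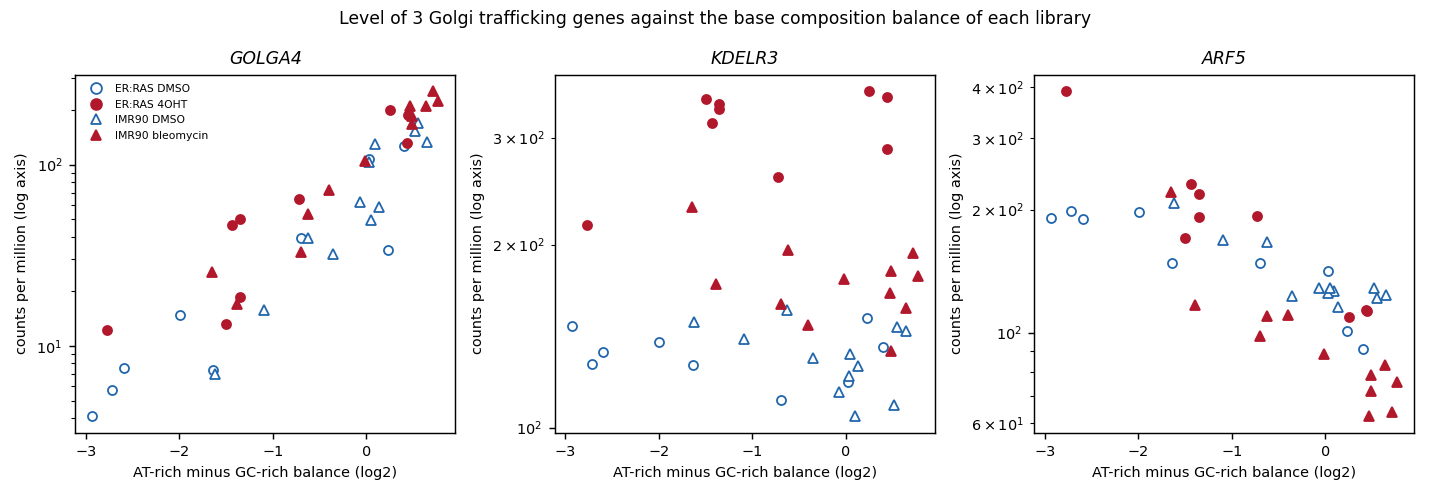
Level of GOLGA4, KDELR3 and ARF5 (vertical axes, CPM, log scale) against the difference in median log2 CPM between the most AT-rich and the most GC-rich genes of each library (horizontal axis), for all 42 libraries. Circles are ER:RAS and triangles IMR90 libraries, filled where senescent and open in DMSO. GOLGA4 climbs from 4.09 to 255 CPM along the axis and ARF5 declines, while the OIS libraries of KDELR3 lie above the DMSO libraries of ER:RAS cells at every balance.

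A correction of each library for GC content and transcript length, chosen after seeing the data, called more of the 49. It also removes any difference between conditions that follows GC content or length. In OIS with the control hairpin 18 then rose and 1 fell (against 55.6% of all genes, 28.8% higher and 26.7% lower), and after bleomycin 14 rose and 2 fell (against 46.7%, 21.6% higher and 25.1% lower). In OIS 19 rose and 1 fell with shRNA 1 (against 57.4%, 29.5% higher and 27.9% lower) and 20 rose and 0 fell with shRNA 2 (against 57%, 29.2% higher and 27.8% lower). After bleomycin 20 rose and 2 fell with shRNA 1 (against 50.5%, 24.7% higher and 25.8% lower) and 21 rose and 3 fell with shRNA 2 (against 53.6%, 26.4% higher and 27.2% lower). In OIS KDELR3 (1.13, adjusted p = 9.80e-06), TMED9 (1.01), ARF1 (0.69), TMED4 (0.67) and COG2 (-0.63) were called as before, and the others included COG6 (1.39, adjusted p = 0.00257), ARFGAP3 (0.92, adjusted p = 9.53e-07) and GORASP1 (0.66, adjusted p = 1.60e-05). After bleomycin TMED4 (0.47) and COG1 (0.65) were called as before, ARF4, KDELR3 and SEC22B were not, and ARF5 fell (-0.66, adjusted p = 9.64e-05). In knockdown over both hairpins in OIS the corrected fit called GOLGA1 (0.53, adjusted p = 0.0362) in place of ARF4 (against 1.86% of all genes). The SD of ARF4 within groups rose under the correction, as given above. The difference between OIS and bleomycin was called for 12 of the 49 (against 36.6%, 20.2% higher and 16.4% lower), KDELR3 among them and COG2 not. GOLGA4 was not called in OIS or after bleomycin with the control hairpin, nor by knockdown in OIS.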

How the data were processed

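RNA from 42 libraries was prepared by poly(A) selection with a directional kit. The deposited table holds raw counts per gene, made by the authors from single-end reads; all 42 columns were mapped to samples by name. The methods of the study name hg19, Tophat, run with a first-strand library setting, and HTSeq, whereas the submitters' processing notes name hg38, DRAGEN, STAR 2.7.8a and DESeq2 1.32.0. Which made the counts could not be settled, and the strand mode of counting was not given in the sources used here, so gene coordinates were taken from RefSeq on GRCh38.p14 and hairpin sites, transcript lengths and GC content from GENCODE on GRCh37, without conversion.

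Counts were tested with edgeR 4.0.16 (R 4.3.3; quasi-likelihood, robust, TMM, filterByExpr), with the 6 groups of a cell line sharing a fit and Benjamini-Hochberg adjustment over all genes at 0.05, in 21 comparisons. CPM used TMM-scaled library sizes, and SDs a prior count of 2. The effect over both hairpins is the mean of their effects. The code was tested on simulated data. Alternatives were DESeq2 1.42.0 size factors or its Wald test, no filter, only the groups compared, a replicate block, each library left out and, added after seeing the data, a spline correction for GC content and length. No 2 libraries agreed within sampling noise. Every member could be named, with full values for those called with the control hairpin, by knockdown or between models, and otherwise the member of its family with the smallest adjusted p in OIS. The members and gene lists were chosen with earlier results of these data known. The total counts above give a floor of 3 counts, 0.127 to 0.228 CPM, which all members passed in every library.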

Additional observations from a re-analysis of the deposited data

Results flagged for a closer look

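Among the 12 members given with full values, the highest or lowest library stood apart from the others of its IMR90 group (by Dixon's ratio for 4 samples) in 8 of 72 tests, 11.1%. Chance gives about 1 in 20 for independent tests, but these 72 share the same libraries, so no excess is claimed. TMED9 reached 355 CPM in 1 library of DMSO with shRNA 1, TMED4 119 CPM in 1 of DMSO with shRNA 2, ARF4 985 CPM in 1 of bleomycin with shRNA 2 and ARFGAP3 111 CPM in 1 of bleomycin with the control hairpin. ARFGEF2 was low in 1 library of DMSO with the control hairpin (42.9 CPM). SURF4 was high in 1 library of each IMR90 DMSO group, at 817 CPM with the control hairpin, 725 CPM with shRNA 1 and 735 CPM with shRNA 2. All 3 were the first replicate, whose balance of AT-rich against GC-rich genes was the lowest of its group (-1.62, -1.09 and -0.63); the part of that balance in the SURF4 values was not tested.

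The responses to OIS and to bleomycin differed, by a test of the difference itself, for KDELR3 (0.79) and for COG2 (-0.65), as given above. Cell line and stimulus cannot be told apart there.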

How the results depend on the processing

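With the control hairpin, the number of members called in OIS (5) was 8 by the Wald test, 13 with a replicate block, 19 with the GC and length correction, 1 in a fit of only the groups compared and 2 to 9 leaving out 1 library. Except for the correction, the share of all genes called under each alternative is not given here. A change in these counts is therefore not shown to be particular to the members. In OIS with shRNA 1 (6) it was 15 with the block, 20 corrected and 3 to 9 leaving out 1, and with shRNA 2 (5) 19, 20 and 2 to 6, and 3 in only the groups compared. After bleomycin (5) it was 2 with no filter, 8 by the Wald test, 13 with the block, 16 corrected, 3 in only the groups compared and 3 to 11 leaving out 1. With shRNA 1 (10) it was 5 with no filter, 16 with the block, 22 corrected and 4 to 8 leaving out 1, and with shRNA 2 (12) 19 with the block, 24 corrected, 7 in only the groups compared and 10 to 15 leaving out 1. For knockdown in OIS with shRNA 1 (0) it was 1 by the Wald test and 1 with the replicate block. With shRNA 2 (1) it was 0 corrected, 0 in only the groups compared and 0 to 1 leaving out 1, and over both (1) 2 by the Wald test, 0 in only the groups compared and 0 to 1 leaving out 1. The difference in knockdown effect between OIS and DMSO (0) gave 1 by the Wald test. The difference between models (2) gave 1 with size factors, 1 with no filter, 4 with the replicate block, 12 corrected, 0 in only the groups compared and 1 to 2 leaving out 1. The median change of the 49 in OIS ran from 0.0465 to 0.35 leaving out 1 library, lowest without the third OIS control library. Over the other alternatives it ran from 0.1975 to 0.41. Only ARFGEF2 and SEC22B reversed, both uncalled, in OIS: ARFGEF2 from -0.38 to 0.77 and SEC22B from -0.25 to 0.26 leaving out 1 library, with SEC22B also at 0.0664 with size factors, 0.0001994 with no filter and 0.0666 by the Wald test. Of 826 single-gene values, 655 kept their call and direction, 146 lost and 18 gained a call, and 7 reversed. In OIS with the control hairpin the replicate block called ARFGAP3 (0.72), GORASP1 (0.52), COG1 (0.44) and ARF4 (0.28), with adjusted p from 0.0007796 to 0.0453. Causes were not tested.

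Libraries with the same replicate number shared variation: 14 of 18 ER:RAS and 23 of 24 IMR90 libraries correlated best with their own number. Not every pair did so, as same-numbered libraries correlated from -0.614 to 0.924 over 45 ER:RAS pairs. Over 60 IMR90 pairs the range was -0.495 to 0.800. The labels do not say what a replicate number stands for. In every group the third replicate had the highest balance of AT-rich against GC-rich genes. The main test had no term for replicate, so this shared variation stayed in its estimate of the spread. With a replicate block more members were called in each senescence comparison, as given above. At this spread between replicates, an uncalled member is not shown to be unaffected.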
